A study of Mus musculus with 12 samples.

Results

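The genes described here encode the contractile apparatus of skeletal muscle, measured in a mouse fat depot under the skin, the inguinal white adipose tissue (iWAT). They were 34 genes out of 33200 in the deposited count table, chosen by symbol with their difference between knockout and wild-type iWAT already known. The genotype values below are therefore a description and support nothing by themselves. Poly(A) RNA was sequenced from 3 wild-type C57BL/6 mice and from 3 mice with a global Nrep knockout (Nrep-/-, here KO) made by CRISPR/Cas editing. All animals were 16 weeks old, kept specific-pathogen-free on a maintenance diet with alternating light and dark phases, and described as biological replicates. The knockout is in every tissue, so muscle and fat both lack the gene. Liver, the other tissue sampled, is not analysed here.

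Library totals lay between 17970451 and 20369345 estimated counts. Nrep held 1404, 1640 and 1300 counts in wild-type replicates 1, 2 and 3 and 2, 2 and 5 in the KO ones. All 14 mature adipocyte markers passed the filter on low counts, and their summed level was 16307 to 20337 CPM (counts scaled to a common library size by TMM) in wild type and 21965 to 38531 in KO. In that sum KO replicate 2 was the lowest KO library, at 21965 CPM against 32720 and 38531 in KO replicates 1 and 3. It was also the lowest KO library in muscle transcripts, and the part of the one in the other was not tested. In bulk tissue a different number of cells and a different amount of RNA per cell cannot be told apart.

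A sarcomere is the repeating unit of striated muscle. Myosin thick filaments, held together at the M-band, slide along actin thin filaments, anchored at the Z-disc, and titin spans from one to the other. Muscle fibres come in fast and slow kinds, which use different genes for the same part: Myh4, Myh1 and Myh2 encode the heavy chains of type IIb, IIx and IIa fast fibres, and Myh7 that of slow fibres. Troponins, light chains and myosin binding proteins have fast and slow versions too. White fat itself has no sarcomeres.

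Sarcomere transcripts were abundant in KO replicates 1 and 3, present at a lower level in KO replicate 2, and scarce in wild type. The 34 genes together held 1587, 1893 and 1888 counts in the wild-type libraries and 69580, 14656 and 68782 in KO replicates 1, 2 and 3. As a share of all counts this was 0.00883%, 0.00929% and 0.00941% in wild type and 0.367%, 0.0745% and 0.348% in KO, where the mean was 0.263% ± 0.163 (SD, n = 3). The groups did not overlap, and KO replicates 1 and 3 lay close together. Of the 34 genes, 28 passed the filter on low counts and 16 of those were called higher in KO by edgeR's quasi-likelihood test at an adjusted p of 0.05, against 0.865% of all 16656 tested genes; none was called lower, against 0.162%. These counts come from the contrast that chose the genes, and nothing is read from them. Without KO replicate 2 edgeR called 26 of the 28 higher, against 14.5% of all tested genes. Without wild-type replicate 3 it called 12, against 0.624%. Leaving out either of the other wild-type libraries, or KO replicate 1, or KO replicate 3, edgeR called 0 of the 28 and 1 to 3 of all tested genes. In these fits 26 or 27 of the 28 had an unadjusted edgeR p under 0.05. No share over all tested genes was taken at that p, so nothing is read from this count. With all libraries DESeq2 called 26 (7.34% of all tested genes higher) and limma-voom 1 (0.0901%). The median log2 fold change of the 28 was 5.83, beside -0.06 over all tested genes.

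In 25 of the 34 genes every KO library lay above every wild-type one in CPM, a pattern found in 15.2% of all tested genes. These 25 were 9 of the 11 fast-type genes, 0 of the 7 slow-type genes and all 16 genes used in both fibre kinds or given no class. The 9 that overlapped were the 7 slow-type genes, Myh1 and Myh2. In each of them KO replicate 2 was at or below the highest wild-type library. In KO replicate 3, by contrast, all 34 genes were above every wild-type library, and in KO replicate 1 it was 30, the exceptions being Myh7, Tnnt1, Tnni1 and Tnnc1. No share over all tested genes was taken for a single KO library, so these counts have no background beside them.

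**Figure D1:**
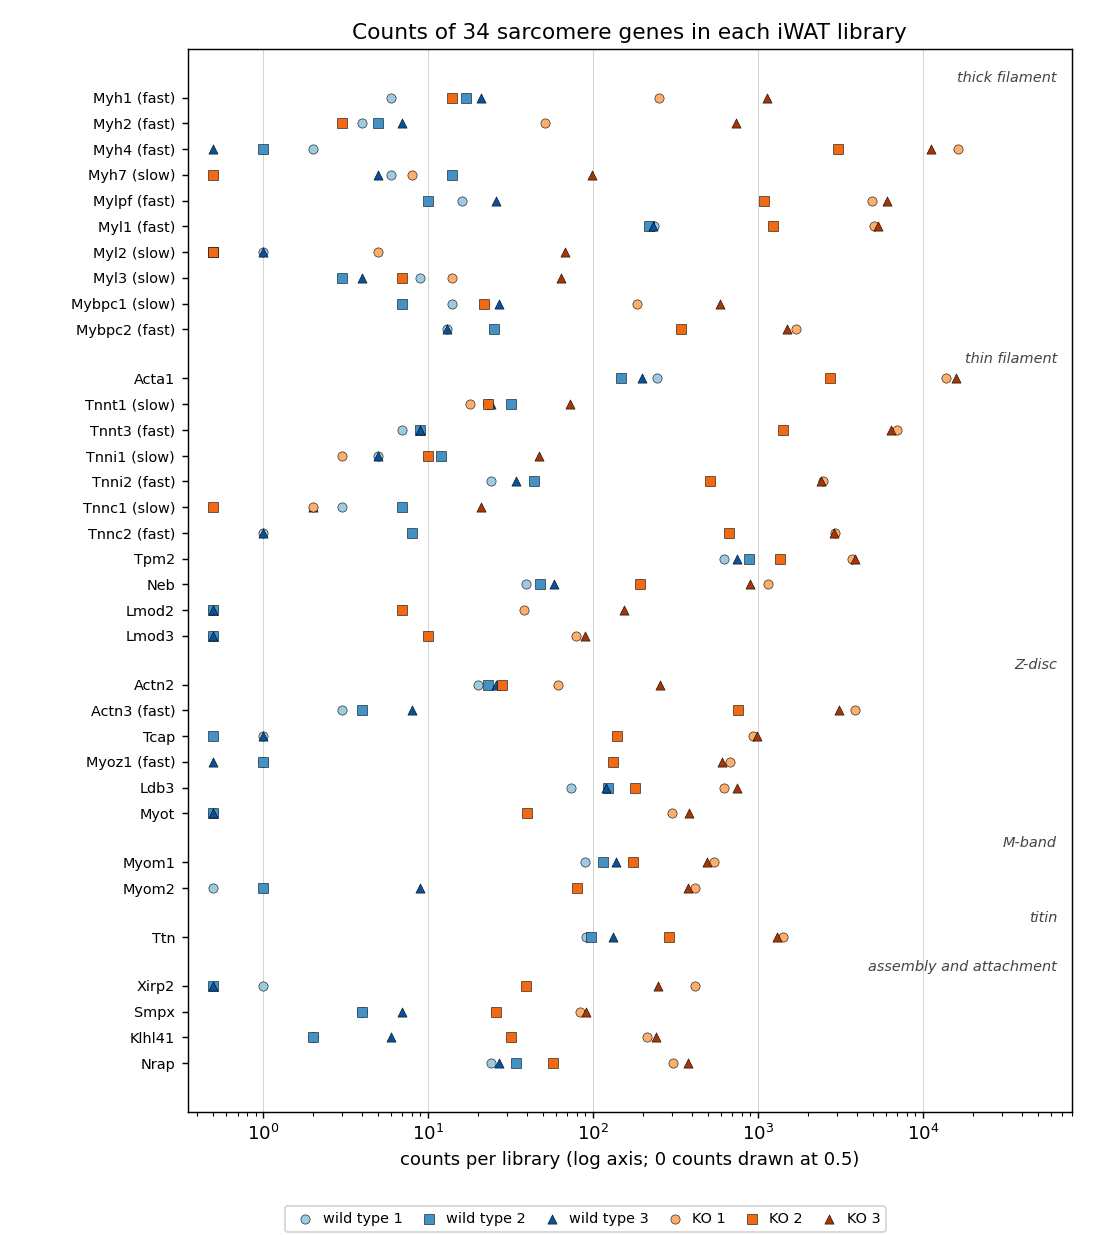
Counts of each sarcomere gene (rows, grouped by place in the sarcomere) in each of the 6 iWAT libraries, on a log axis with 0 counts drawn at 0.5. Blue points are wild type and orange points KO; the KO points lie to the right of the blue ones in 25 rows, while in slow-type rows such as Tnnt1 and Tnni1 the KO replicate 3 triangle stands alone on the right.

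Of the thick filament genes, the IIb myosin heavy chain dominated. Myh4 (ENSMUSG00000057003) held 2, 1 and 0 counts in wild type against 16392, 3038 and 11237 in KO replicates 1, 2 and 3, or 940, 150 and 624 CPM. Myh1, the IIx chain, held 6, 17 and 21 counts in wild type against 252, 14 and 1143 in KO. Myh2, the IIa chain, held 4, 5 and 7 counts in wild type against 51, 3 and 735 in KO, and Myh7, the slow chain, 6, 14 and 5 in wild type and 8, 0 and 99 in KO. So KO replicate 1 had the most Myh4, whereas KO replicate 3 had the most of the other 3 chains. In KO replicate 2 these 3 stayed within or under their wild-type counts, while Myh4 held 3038 counts.

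The makeup of the heavy chain counts differed between the KO libraries beyond counting error. Myh4 made up 98.1% of the 4 chains' counts in KO replicate 1 (95% exact binomial interval 97.9% to 98.3%), 99.4% in KO replicate 2 (99.1% to 99.7%) and 85.0% in KO replicate 3 (84.4% to 85.6%). Myh1 made up 1.51%, 0.458% and 8.65% in the same order, and Myh2 0.305%, 0.0982% and 5.56%. The slow chain Myh7 made up 0.0479% in KO replicate 1, 0 of 3055 counts in KO replicate 2 (exact upper bound 0.121%, where 3 counts would be 0.0982%), and 0.749% in KO replicate 3 (0.609% to 0.911%). Over the 3 animals the share of Myh4 was 94.2% ± 7.97 and that of the 3 fast chains together 99.7% ± 0.419 (SD, n = 3). Without KO replicate 3 the mean Myh7 share went from 0.266% to 0.0239%. Each library is 1 animal, so a difference between 2 of them compares those libraries; intervals cover counting error only. In wild type the 4 chains had just 18, 37 and 33 counts in all, of which Myh4 was 2, 1 and 0.

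These chains share sequence, which limits how exactly reads can be split between them. Of all 100-base windows of the longest Myh4 transcript, 2.25% occur unchanged in a Myh1 transcript, 1.20% in a Myh2 transcript and 0% in a Myh7 transcript. Myh1 and Myh2 are closer, with 7.59% of the windows of Myh1 in Myh2. Of the windows of Myh7, 11.2% occur in Myh6, the cardiac chain, which held 0 to 4 counts in each library. No such window of Myh7 occurs in Myh4, Myh1 or Myh2. In any of the relatives compared, 9.46% of the windows of Myh1, 9.17% of Myh2 and 3.85% of Myh4 occur. The handling of shared reads was not stated, so the counts of Myh1 and Myh2 are less certain than that of Myh4.

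The promoters of the 4 heavy chain genes and of skeletal actin are shown because Myh4 and Acta1 were high in every KO library while Myh1, Myh2 and Myh7 differed between them. Each run is the 250 bases before the RefSeq start site (GRCm38.p6), 5′ to 3′ on the gene's strand. Myh4 is at chr11:67237562-67237811, Myh1 at chr11:67199852-67200101 and Myh2 at chr11:67170777-67171026, all on the plus strand, so the 3 fast chains are neighbours. Myh7 is at chr14:54994627-54994876 and Acta1 at chr8:123894776-123895025, both on the minus strand. Capitals mark the letters TATAAA (the TATA box), CAGCTG (an E-box of the kind that myogenic factors bind) or CATTCC (MCAT, the element of TEAD factors), on either strand.
Myh4: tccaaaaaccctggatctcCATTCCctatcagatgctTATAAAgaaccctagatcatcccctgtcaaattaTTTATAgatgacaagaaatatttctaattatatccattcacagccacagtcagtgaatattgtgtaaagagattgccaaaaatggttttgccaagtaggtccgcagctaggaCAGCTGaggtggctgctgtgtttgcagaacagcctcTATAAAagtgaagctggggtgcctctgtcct
Myh1: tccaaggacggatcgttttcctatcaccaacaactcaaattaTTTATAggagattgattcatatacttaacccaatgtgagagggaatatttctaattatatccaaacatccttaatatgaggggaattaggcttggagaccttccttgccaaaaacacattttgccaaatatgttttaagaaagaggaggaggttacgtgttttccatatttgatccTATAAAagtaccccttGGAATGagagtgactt
Myh2: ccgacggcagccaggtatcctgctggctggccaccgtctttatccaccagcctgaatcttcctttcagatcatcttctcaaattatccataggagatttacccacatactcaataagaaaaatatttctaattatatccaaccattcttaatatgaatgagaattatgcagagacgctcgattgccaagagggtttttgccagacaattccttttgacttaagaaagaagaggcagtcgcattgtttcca
Myh7: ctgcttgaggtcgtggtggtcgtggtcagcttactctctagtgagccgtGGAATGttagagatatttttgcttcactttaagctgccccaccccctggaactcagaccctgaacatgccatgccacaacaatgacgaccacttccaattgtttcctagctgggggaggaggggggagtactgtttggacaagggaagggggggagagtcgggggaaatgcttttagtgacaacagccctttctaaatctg
Acta1: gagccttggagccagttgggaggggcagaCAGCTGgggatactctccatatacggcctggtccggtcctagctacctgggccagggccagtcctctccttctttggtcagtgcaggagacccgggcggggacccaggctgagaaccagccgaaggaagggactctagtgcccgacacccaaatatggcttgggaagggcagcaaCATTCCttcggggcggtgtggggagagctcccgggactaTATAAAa
Myh4 holds TATAAA at -31 to -26 from its start and at 2 places farther away, CAGCTG at -67 to -62 and CATTCC at -231 to -226. Myh1 holds TATAAA at -32 to -27 and at 1 place farther away, and CATTCC at -16 to -11 on the opposite strand, with no CAGCTG. Myh2 holds none of the 3 in this window, which ends at the RefSeq start site. Bases after that site were not searched, so a TATA box there would be missed. The first of the 2 RefSeq start sites of Myh7, the one printed, holds CATTCC at -201 to -196 on the opposite strand. Acta1 holds CAGCTG at -221 to -216, CATTCC at -46 to -41 and TATAAA at -7 to -2.

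Promoters were found for 25 of the 34 genes, at 29 start sites. CAGCTG was in 11 of the 29 windows (37.9%), against 13.0% of all 32851 promoters of the same length, in genes that include Acta1, Myh4, Myl1, Mylpf, Tpm2, Klhl41 and the slow-type Myl2 and Tnni1. CATTCC was in 8 windows (27.6% against 12.6%), of both fast-type (Myh1, Myh4, Myl1, Mybpc2) and slow-type (Myh7, Myl3, Tnnc1) genes. TATAAA was in 6 windows (20.7% against 12.4%). The MEF2 motif, searched as CTA and TAG with any 4 bases between them, was in 5 (17.2% against 3.20%): Klhl41, Ldb3, Smpx, Ttn and Xirp2. No 2 of these matches overlapped in the 5 windows shown. A match is a description of the letters, and a window without one says nothing of the factor.

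The fast light chains and the fast myosin binding protein were far above wild type in every KO library. Mylpf, the fast regulatory light chain, held 16, 10 and 26 counts in wild type against 4882, 1090 and 6056 in KO replicates 1, 2 and 3. Myl1, the fast essential light chain, held 235, 219 and 231 counts in wild type against 5076, 1240 and 5379 in KO, so its wild-type level of 11.3 ± 1.16 CPM (SD, n = 3) was far from 0. The slow light chains were rare: Myl2 had 5, 0 and 68 counts in KO against 1, 0 and 1 in wild type, and Myl3 had 14, 7 and 64 against 9, 3 and 4. KO replicate 3 was the highest library in both. Mybpc2, the fast myosin binding protein C, held 13, 25 and 13 counts in wild type against 1695, 342 and 1501 in KO. Mybpc1, the slow form, which fast fibres also use, held 14, 7 and 27 counts in wild type against 186, 22 and 593 in KO. It was the most abundant slow-type gene, and again KO replicate 3 was highest.

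Skeletal actin was the member with the most counts summed over the KO libraries, though Myh4 had more in KO replicates 1 and 2. Acta1 (ENSMUSG00000031972), skeletal alpha-actin, held 245, 147 and 199 counts in wild type against 13752, 2726 and 15776 in KO. Its wild-type level of 9.80 ± 3.10 CPM was above that of most members, and its KO level was 600 ± 406 CPM (SD, n = 3 each). No 50-base window of its longest transcript occurs unchanged in Actc1, Acta2 or Actg2, the cardiac and smooth muscle actins. Tpm2, a tropomyosin that smooth muscle also uses, had the highest wild-type level of all members, with 33.1, 41.0 and 35.7 CPM against 215, 66.7 and 215 in KO. KO replicate 2 was the KO library nearest to wild type.

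The troponins form the calcium switch of the thin filament, and their fast and slow genes differed in each of the 3 subunits. Tnnt3, fast troponin T, held 7, 9 and 9 counts in wild type against 6956, 1414 and 6452 in KO; its slow partner Tnnt1 held 23, 32 and 24 in wild type and 18, 23 and 73 in KO. Tnni2, fast troponin I, held 24, 44 and 34 counts in wild type against 2465, 513 and 2413 in KO; the slow Tnni1 held 5, 12 and 5 against 3, 10 and 47. Tnnc2, fast troponin C, held 1, 8 and 1 counts in wild type against 2949, 671 and 2899 in KO; Tnnc1, the slow and cardiac form, held 3, 7 and 2 against 2, 0 and 21. In wild type the slow troponin T gene thus had more counts than the fast one, and in every KO library far fewer. KO replicates 1 and 2 were within or under the wild-type counts for all 3 slow troponins.

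Slow-isoform shares placed KO replicate 3 apart from KO replicate 1 in all 6 fast and slow pairs, and so did the share of Actn2 in alpha-actinin, a pair with no slow isoform. Tnnt1 made up 0.258% of troponin T counts in KO replicate 1 (95% exact binomial interval 0.153% to 0.408%), 1.60% in KO replicate 2 (1.02% to 2.39%) and 1.12% in KO replicate 3 (0.878% to 1.40%). The troponin I share of Tnni1 was 0.122%, 1.91% and 1.91%, and the troponin C share of Tnnc1 was 0.0678%, 0 of 671 counts (exact upper bound 0.548%, where 3 counts would be 0.447%) and 0.719%. The slow light chains made up 0.190%, 0.300% and 1.14%. Actn2 made up 1.55%, 3.55% and 7.55% of alpha-actinin counts, and Mybpc1 9.89%, 6.04% and 28.3% of myosin binding protein C counts. In each pair the interval of KO replicate 3 lay above that of KO replicate 1 without overlap. For troponin T and I the share in KO replicate 2 was as high as in KO replicate 3, with slow counts of 23 and 10, the size also seen in wild type (23 to 32 and 5 to 12).

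**Figure D2:**
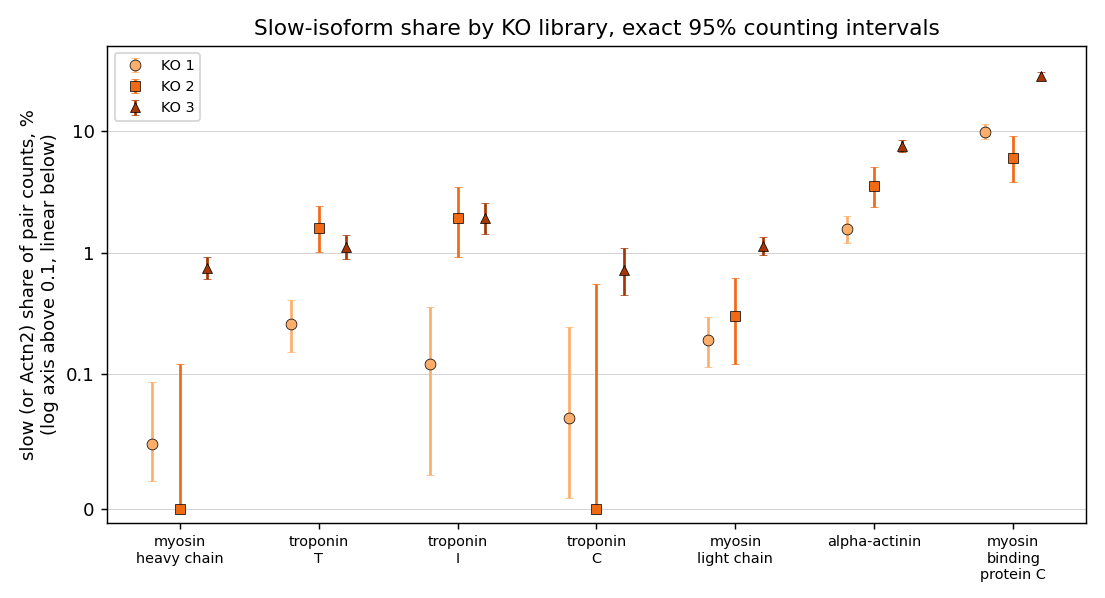
Percent of counts on the slow gene of each pair (for alpha-actinin, Actn2) in KO replicates 1, 2 and 3, with exact 95% binomial intervals, on an axis that is logarithmic above 0.1% and linear below. KO replicate 3 (triangles) lies above KO replicate 1 (circles) in all 7 pairs, from 0.749% against 0.0479% in the heavy chains to 28.3% against 9.89% in myosin binding protein C.

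Neb, nebulin, the giant protein along the thin filament, held 39, 48 and 58 counts in wild type against 1146, 194 and 892 in KO. The leiomodins, which promote actin filament growth, had no counts in wild type: Lmod2 had 0 counts in each wild-type library and 38, 7 and 154 in KO, and Lmod3 had 0 and 79, 10 and 89. With KO counts pooled and a floor of 3 counts over the wild-type group, Lmod2 was at least 72.8-fold higher in KO and Lmod3 at least 65.1-fold. These pooled bounds do not hold for each library. Lmod2 had 2.18, 0.345 and 8.56 CPM in KO replicates 1, 2 and 3, and Lmod3 4.53, 0.493 and 4.95. Lmod2 was 3.93 times as high in KO replicate 3 as in KO replicate 1, while Lmod3 was 1.09 times as high.

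In 6 of 6 Z-disc genes every KO library lay above every wild-type one, against 15.2% of all tested genes. This was not particular to the Z-disc. It also held for 2 of 2 M-band genes, titin, 4 of 4 assembly and attachment genes and 8 of 11 thin filament genes. Actn3 (ENSMUSG00000006457), the alpha-actinin of fast fibres, held 3, 4 and 8 counts in wild type against 3874, 761 and 3109 in KO. Actn2, the alpha-actinin of all fibres and the heart, held 20, 23 and 26 in wild type and 61, 28 and 254 in KO, so that KO replicate 2 barely cleared wild type. Tcap, which caps titin at the Z-disc, had 934, 139 and 983 counts in KO and 1, 0 and 1 in wild type, a pooled ratio of 1128 (95% exact counting interval 312 to 9322). That interval leaves out the difference between animals and does not hold for each KO library. KO replicates 1, 2 and 3 had 53.6, 6.85 and 54.6 CPM, against a wild-type mean of 0.0337. Myoz1, the calsarcin of fast fibres, had 1, 1 and 0 counts and 677, 132 and 609. Myot, myotilin, had 0 counts in all wild-type libraries and 300, 40 and 381 in KO. Pooled over the KO libraries it was at least 264-fold higher against the same floor, a bound that does not hold for KO replicate 2 alone. Ldb3, a PDZ-LIM scaffold, held 74, 124 and 120 counts in wild type against 626, 181 and 745 in KO. The set thus ran from genes with almost no wild-type counts (Tcap, Myoz1, Myot) to genes with a steady wild-type level (Ldb3, Actn2).

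The 2 M-band genes differed in the same way. Myom1, myomesin 1, held 90, 115 and 137 counts in wild type against 540, 175 and 493 in KO, and Myom2, the myomesin of fast fibres, held 0, 1 and 9 in wild type and 414, 80 and 376 in KO. Ttn, titin, held 91, 97 and 132 counts in wild type against 1424, 288 and 1312 in KO. These 3 were highest in KO replicate 1. Of the 4 genes of assembly and attachment, 3 were highest in KO replicate 3. Klhl41, which stabilises nebulin, held 214, 32 and 242 counts in KO, Nrap, an adaptor at the growing myofibril and the muscle-tendon junction, 306, 57 and 376, and Smpx 84, 26 and 91. In wild type these 3 held 2 to 6, 24 to 34 and 4 to 7. Xirp2, an actin-binding repeat protein, had 1, 0 and 0 counts in wild type against 416, 39 and 248 in KO, so it was higher in KO replicate 1 than in KO replicate 3.

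The filaments and the Z-disc kept nearly the same proportions in all KO libraries. Thick filament genes held 41.0%, 39.3% and 39.1% of the members' counts in KO replicates 1, 2 and 3, thin filament genes 44.8%, 47.2% and 47.5%, and Z-disc genes 9.30%, 8.74% and 8.84%. Among smaller parts, M-band genes held 1.37%, 1.74% and 1.26%, highest in KO replicate 2. Assembly and attachment genes held 1.47%, 1.05% and 1.39%, lowest in KO replicate 2. Summed Z-disc levels were 371, 63.1 and 338 CPM in KO against 5.27 to 7.40 in wild type, and M-band levels 54.7, 12.6 and 48.3 against 4.79 to 6.98. Slow-type genes differed more between libraries, with 0.339%, 0.423% and 1.40% of the members' counts. Their summed level was 13.5, 3.05 and 53.6 CPM in KO against 3.25 to 3.50 in wild type, so KO replicate 2 was under the wild-type range.

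Set against KO replicate 1, the 2 other KO libraries departed in different ways. In KO replicate 2, 32 of the 34 members were lower, with a median ratio of 0.173 in the 11 fast-type genes (range 0.0477 to 0.210), 0.163 in the 16 without a class (0.0805 to 0.394) and 0.102 in the 7 slow-type genes (0 to 2.86). The members differed from each other beyond counting error, as between Myh1 at 0.0477 (95% exact interval 0.0257 to 0.0816) and Tpm2 at 0.311 (0.292 to 0.331). These ratios include each gene's wild-type level. With the mean wild-type CPM subtracted, a step chosen after seeing the data, Tpm2 was at 0.169. Over the 25 members above wild type in every KO library, the ratios then ran from 0.0798 to 0.227. Their SD was 0.0363, against 0.0686 without the subtraction. The 2 of the 34 members that were not lower were the slow Tnnt1 and Tnni1, at wild-type counts. Over the 15052 genes with a mean of at least 1 CPM in KO, the median ratio was 0.995.

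In KO replicate 3 the ratio differed by fibre class. The median ratio to KO replicate 1 was 0.948 in the fast-type genes and 10.2 in the 7 slow-type genes. In the slow-type genes it ranged from 3.09 (Mybpc1) to 15.2 (Tnni1), and the exact 95% counting interval was above 1 in all 7. Apart from Mybpc1, with 186 counts, KO replicate 1 held few slow-type counts. The intervals were therefore wide, as for Tnni1 (3 counts, 4.89 to 76.2) and Tnnc1 (2 counts, 2.49 to 89.5). In KO replicate 1, Myh7, Tnnt1, Tnni1 and Tnnc1 were not above every wild-type library. Within the fast-type genes, Myh2 was 13.96 times as high (10.5 to 18.9) and Myh1 4.39 times (3.83 to 5.06), while Myh4 was 0.664 times as high (0.648 to 0.680). Actn2, at 4.03 (3.04 to 5.43), and Lmod2, at 3.93 (2.74 to 5.76), were the 2 genes without a class that went with the slow-type ones. The other 14 of that class lay between 0.578 (Xirp2) and 1.23 (Myot). Over the 15052 genes the median ratio was 0.989.

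**Figure D3:**
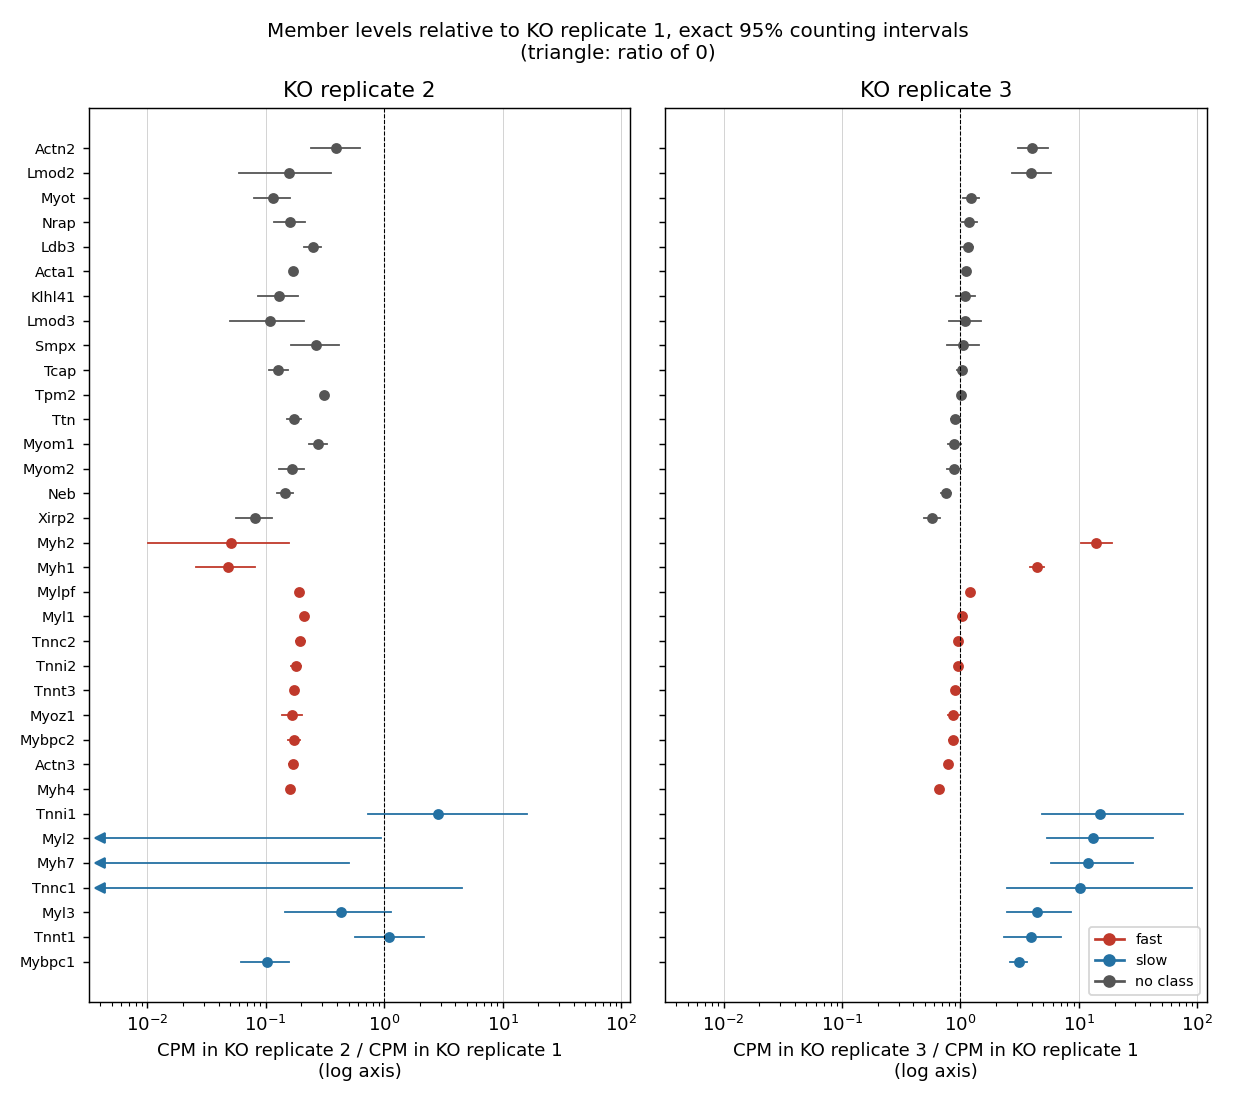
Level of each sarcomere gene in KO replicate 2 (left) and KO replicate 3 (right) divided by that in KO replicate 1, on log axes with exact 95% counting intervals; blue is slow-type, red fast-type and grey no class, and a triangle marks a ratio of 0. On the left most points sit near 0.17; on the right most sit near 1, while the 7 blue points, Myh1, Myh2, Actn2 and Lmod2 lie between 3.09 and 15.2.

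Per length of transcript, the KO levels ranged over 3 orders of magnitude. Values are CPM per kb of the longest protein-coding transcript. Acta1 was first in each KO library, at 545, 92.9 and 606 (mean 415 ± 281, SD, n = 3). The next 5 were the small fast-type genes Mylpf (292 ± 195), Tnnt3 (256 ± 166), Myl1 (201 ± 125), Tnnc2 (173 ± 109) and Tnni2 (131 ± 84.7), followed by Myh4 (94.98 ± 66.1). The SDs of neighbours in this order overlap, but they come from a difference between libraries that these genes share. Within libraries, 5 of the 6 neighbouring pairs among these 7 kept their order in all 3, and Mylpf and Tnnt3 did not. Actn3 (49.9 ± 33.1) and Tcap (40.4 ± 28.8) led the Z-disc genes, and Myom1 (3.95 ± 2.13) was ahead of Myom2 (3.19 ± 2.11) at the M-band. At the bottom were Ttn (0.527 ± 0.344), whose longest transcript has 106824 bases, and Myh7 (0.319 ± 0.490).

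**Figure D4:**
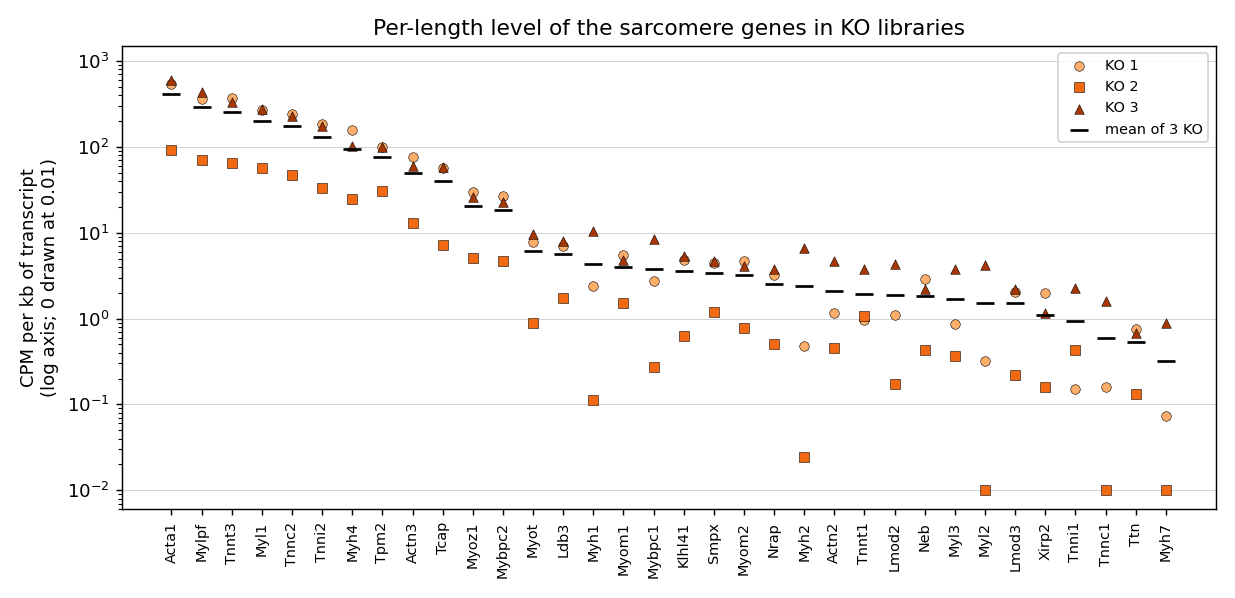
CPM per kb of transcript of each sarcomere gene in the 3 KO libraries (points) and their mean (bar), ordered by the mean, on a log axis with 0 drawn at 0.01. Acta1 is highest in every library, KO replicate 2 (squares) is lowest for most genes, and KO replicate 3 (triangles) stands above KO replicate 1 in the slow-type genes on the right.

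Other genes of the sarcomere and its assembly, listed from textbook knowledge, are given for comparison; the list was chosen with earlier results of these data known. All 52 were in the table and 40 passed the filter; edgeR's quasi-likelihood test called 7 higher in KO and 0 lower, against 0.865% and 0.162% of all tested genes. Without KO replicate 2 it called 26 higher and 1 lower (Tpm3, the slow tropomyosin gene that many cells also use, named after its value was seen), against 14.5% of all tested genes called higher. Mylk4, a myosin light chain kinase relative, had 0.372, 0.0933 and 0.0478 CPM in wild type and 52.5, 7.04 and 36.5 in KO (log2 fold change 7.55, SE 0.989, edgeR adjusted p = 0.0326). Mylk2, the skeletal myosin light chain kinase, had 1 count in each wild-type library and 309, 41 and 367 in KO (adjusted p = 0.0409 in edgeR). Tmod4, the skeletal tropomodulin, rose from 0.183 ± 0.0718 to 7.27 ± 4.42 CPM (SD, n = 3 each; edgeR adjusted p = 0.0370), and Cmya5, a costamere protein, from 1.17 ± 0.228 to 22.8 ± 14.3 CPM (edgeR adjusted p = 0.0390). In these 4 the KO libraries were all above wild type, with KO replicate 2 the lowest of them.

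The next genes of the list were named after their values were seen. Csrp3, Ankrd2 and Myoz2, which are known from slow fibres and heart, held 6, 0 and 69, 4, 1 and 71, and 4, 0 and 49 counts in KO replicates 1, 2 and 3, and at most 3 in any wild-type library. They were highest in KO replicate 3, but other genes of the list known from slow fibres or heart were not: Actc1 held 259, 80 and 157, Myh7b 6, 0 and 1, Ankrd1 8, 23 and 3, and Tpm3 5078, 7711 and 4789 counts. Myoz3, the other calsarcin of fast fibres, held 89, 17 and 69 counts in KO and 0 in wild type, the order also seen in Myh4 and Actn3. Of the 11 fast-type members, 4 were instead higher in KO replicate 3 than in KO replicate 1. The embryonic and perinatal heavy chains Myh3 and Myh8 held 0 to 4 counts in all 6 libraries.

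Regulators of muscle gene expression that passed the filter did not move together. Of 18 listed, 14 passed the filter. Myf5, Myod1, Myog and Vgll2 did not, so the calls leave them out. edgeR called 0, with 4 at an unadjusted p under 0.05 and 8 with positive log2 fold changes. DESeq2 called 1 and limma-voom 0. Of all tested genes, edgeR called 0.865% higher, DESeq2 7.34% and limma-voom 0.0901%, and no share was taken at the unadjusted p. Without KO replicate 2 edgeR called 6 of the 14, 3 higher and 3 lower, with Myf6 higher and Mef2c lower among them, where 14.5% and 10.9% of all tested genes were called higher and lower. Mef2d and Mef2c, MEF2 factors that other cells also express, had 113 ± 5.51 and 109 ± 5.16 CPM in wild type and 108 ± 14.2 and 72.3 ± 24.7 in KO (SD, n = 3 each). Named after its values were seen, Myf6, the myogenic factor of mature fibres, had 0 counts in all wild-type libraries and 59, 13 and 65 in KO, with an edgeR adjusted p of 0.0606. Myod1 had 0 in wild type and 8, 0 and 7 in KO, and Myog 0 and 4, 0 and 5. Vgll2, also named after its values were seen, had 0 in wild type and 4, 0 and 20 in KO, and Myf5 0 and 2, 0 and 0.

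Markers of other cell types were set beside these values. Pax7, the marker of muscle stem cells, held 0 to 4 counts in all libraries; 5 of the 8 genes of that list (Pax7, Pax3, Myf5, Calcr, Cdh15) held at most 4 counts in any library. The list's sum was 163 to 246 CPM in wild type and 115 to 182 in KO, of which Vcam1, which many other cells express, was 152 to 234 and 97.2 to 168. Of 8 cardiac markers in the table, Myh6, Nppb and Myl7 had 0 to 4 counts in each library; the sum was 4.38 to 5.69 CPM in wild type and 7.88 to 17.2 in KO, and the cardiac actin Actc1, picked out after seeing its values, had the largest part of it in KO, with 29, 35 and 33 counts in wild type against 259, 80 and 157 in KO. The 10 smooth muscle markers summed to 687 to 780 CPM in wild type and 611 to 782 in KO. The 10 brown and beige fat markers summed to 236 to 647 CPM in wild type and 456 to 920 in KO. All 10 had positive log2 fold changes (median 0.92), as had 7364 of all 16656 tested genes. In 4 of the 10 every KO library was above every wild-type one, against 15.2% of all tested genes, and the others overlapped. Nerve-muscle junction genes summed to 23.1 to 25.5 CPM in wild type and 22.4 to 30.3 in KO, of which Colq was 12.9 to 15.8 and 6.00 to 16.8. In 3 of the 6 tested (Chrnb1, Dok7 and Ache), every KO library was above every wild-type one, against 15.2% of all tested genes. The other tested ones overlapped. These 3 and Colq were named after their values were seen. Tendon genes summed to 36.9 to 43.8 in wild type and 24.0 to 40.5 in KO, and epidermal and mammary genes to 4.26 to 8.98 and 3.28 to 5.96.

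In these 7 marker lists edgeR called 0 genes, where 0.865% of all tested genes were called higher and 0.162% lower. At an unadjusted edgeR p under 0.05 there were 1 of 2 tested stem cell genes, 1 of 4 cardiac, 2 of 10 smooth muscle, 5 of 10 brown and beige, 3 of 6 nerve-muscle junction, 0 of 3 tendon and 0 of 3 epidermal and mammary genes. No share over all tested genes was taken at that p, so these counts have no background beside them. DESeq2 called 0, 1, 1, 3, 1, 0 and 0 in that order, where it called 7.34% of all tested genes higher. limma-voom called 0 in each, where it called 0.0901% higher. Of the 14 adipocyte markers edgeR called 1, Slc2a4, the insulin-responsive glucose transporter that muscle also uses (77.8 ± 15.0 CPM in wild type, 218 ± 56.2 in KO, SD, n = 3 each, edgeR adjusted p = 0.0435); all 14 had positive log2 fold changes, and DESeq2 called 12. The part of these cell types in the sarcomere values was not tested.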

How the data were processed

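iWAT poly(A) libraries were made with a stranded mRNA kit, per the labels' protocols. The authors deposited estimated counts per gene, 1 column per library, unscaled and not pooled; 9.53% to 11.1% of values were not whole. Per the submitters' processing notes fastp, featureCounts, GRCm38 and GRCm39 were used in the series; which of them made this table was not stated. Counts were rounded. Symbols came from GENCODE M21 (26372 of 33200 identifiers), transcript lengths from the same release and promoters from RefSeq.

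edgeR 4.0.16 (R 4.3.3) with TMM, filterByExpr, robust quasi-likelihood F-tests, no covariate and Benjamini-Hochberg adjustment over all 16656 tested genes compared 3 KO with 3 wild-type libraries, two-sided. CPM are TMM-scaled; 1 count was 0.0466 to 0.0574 CPM. Ratios and shares have exact binomial (Clopper-Pearson) 95% intervals. Alternatives were DESeq2 1.42.0, limma-voom 3.58.1, library totals, no filter, a block on replicate number, and dropping each library in turn. The test was checked on simulated data.

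The members and lists were chosen with earlier results of these data known. Genes that could be named were all members, Nrep, and of each other list up to 4 called genes, lowest adjusted p first, or, where none passed, the 2 with the highest mean CPM; marker genes are also named where they were at or near 0, and others are said to be named after their values were seen.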

Additional observations from a re-analysis of the deposited data

How the results depend on the processing

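Counts of called genes depended on the test and on single libraries. Over all genes edgeR called 171, DESeq2 1824, limma-voom 16, edgeR without a filter 1370 and edgeR with a replicate block 1225. Of the members these gave 16, 26, 1, 7 (of 34) and 20, of the other sarcomere genes 7, 21, 0, 11 and 17, and of the regulators 0, 1, 0, 1 and 2. Leaving out 1 library gave 1 to 4221 calls over all genes, 0 to 26 of the members, 0 to 27 of the other sarcomere genes and 0 to 6 of the regulators; the highest value of each came without KO replicate 2. The cause was not tested. Library totals alone took the all-gene median log2 fold change from -0.06 to -0.19 and gave 129 higher and 49 lower calls, against 144 and 27.

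Whether replicate numbers pair the libraries could not be settled with 3 libraries per group. Deviations of same-numbered wild-type and KO libraries from their group means correlated at -0.0077, 0.196 and 0.105. KO replicates 2 and 3 correlated best with the wild-type library of their own number, and KO replicate 1 with wild-type replicate 3 (0.139). The main fit used no pairing.

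Mylk4, Mylk2, Tmod4, Cmya5 and Slc2a4 had positive log2 fold changes in all 11 alternatives, and passed the threshold in 5, 4, 5, 5 and 6 of them. The member share of all counts (0.208% to 0.357%) moved by less than 1 SD. The fast share of heavy chain counts lies near its ceiling (99.6% to 99.98%); as the slow share, its mean was 0.266% with all KO libraries and 0.0239% without KO replicate 3. Tnnt1 and Tnni1 had a negative log2 fold change in 1 fit each, without KO replicate 3. Low counts limit the slow-type genes in wild type, in KO replicate 2 and, apart from Mybpc1, in KO replicate 1.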
